A study of Mus musculus with 6 samples.

Results

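Dpp4, Fap, Dpp6, Dpp7, Dpp8, Dpp9 and Dpp10 encode a family of related prolyl peptidases, and their signal was followed on all 6 arrays. These 7 genes were taken by name from the 19938 genes that had a probe set (a group of short array sequences read as 1 value) annotated with that gene symbol alone, and the brightest such probe set stood for each gene. The family was chosen by the signal of Dpp4 and its difference between the groups on these same arrays, so the members' differences between the groups are given below as a description, with no p-value. The tissue was retinal pigment epithelium (RPE), the pigmented cell layer behind the neural retina, dissected from C57BL/6J mouse embryos at E15.5. In the study the mutants were Pax6loxP/loxP;DctCre embryos. In them Cre under the Dct promoter, active in cells of the pigment lineage, deletes the Pax6 exons that encode the paired domain. A truncated protein remains. The controls were Pax6loxP/loxP littermates without Cre, so both groups carried the floxed alleles. There were 3 arrays labelled mutant and 3 labelled control, and which embryos each set came from is taken up next. Each array held RPE pooled by how strongly it was pigmented, and such a tube was counted as 1 sample. Values are log2 signals, so 1 unit is a doubling.

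The names of the groups on the arrays disagree with the authors' own group means and with other measurements of the study. The authors also deposited a table of group means, and 86 of its 100 entries could be matched to an array probe set by symbol and RefSeq number. None of the 86 lay within 0.1 of the array means under the names as given, and all 86 did with the names exchanged. Dpp4 itself stood at 6.03 under KO and 7.20 under CON in that table, the authors' means. The study also found Tyr and Tyrp1 reduced in its mutants, as transcripts by quantitative PCR and as proteins by antibody labelling. On the arrays labelled mutant both were higher, Tyr by 0.67 (SE 0.17) and Tyrp1 by 0.94 (SE 0.12). By that table and by these transcripts the names are exchanged, and Dpp4 would be lower in the mutants. The text therefore writes of arrays labelled mutant or control, and every signed value below, the arrays labelled mutant minus those labelled control, runs opposite to that table and to the direction in which the study describes its mutants. The targeted gene gave no clear answer on the names. Pax6 had 9.0, 8.97 and 8.74 on the arrays labelled mutant and 9.15, 9.02 and 9.22 on those labelled control. Every array labelled mutant was below every array labelled control, as for 5.17% of all genes. The difference was −0.23 (SE 0.09, limma unadjusted p = 0.030, adjusted p = 0.729). A lower value would go with the names as given if the probes of Pax6 cover the deleted exons. Where its probes lie relative to those exons was not checked.

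Array medians lay between 4.86 and 4.93, and of 12 RPE markers 8 were at or above the median signal, with Rpe65, Best1, Lrat and Rgr below it. Neural retina markers were also present and varied from array to array: the mean of 12 of them was 6.83, 6.36 and 5.42 on the arrays labelled mutant and 7.12, 5.57 and 6.47 on those labelled control.

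DPP4 is a serine peptidase anchored in the cell membrane that removes the first pair of amino acids from peptides with proline or alanine in the second position. It shortens incretins, neuropeptide Y and several chemokines in this way, and as CD26 it is a well-known surface protein of T cells and many epithelia. FAP is its closest relative and is found on activated fibroblasts. DPP7 (also called DPPII) works in acidic vesicles and lysosomes, DPP8 and DPP9 work in the cytosol, and DPP6 and DPP10 have lost the catalytic serine and instead serve as auxiliary subunits of the Kv4 potassium channels of neurons.

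Dpp4 and Dpp7 were the members whose groups did not overlap on the arrays, and the bases upstream of their starts are printed for that reason, from RefSeq on the GRCm38.p6 assembly, on the minus strand, which is the strand of both genes. Capitals mark the E-box hexamer CACGTG, the related hexamer CATGTG (part of the M-box of pigment genes) and the reverse complement of that one, CACATG, which MITF and its relatives TFEB and TFE3 are known to bind. The stretches are chr2:25356333-25356582 for Dpp7 and chr2:62412232-62412481 for Dpp4. Each ends at the base before the transcript start that the RefSeq promoter table uses. The gene records begin farther upstream, so the last 57 bases printed for Dpp7 and the last 84 printed for Dpp4 lie inside the gene as annotated.
Dpp7: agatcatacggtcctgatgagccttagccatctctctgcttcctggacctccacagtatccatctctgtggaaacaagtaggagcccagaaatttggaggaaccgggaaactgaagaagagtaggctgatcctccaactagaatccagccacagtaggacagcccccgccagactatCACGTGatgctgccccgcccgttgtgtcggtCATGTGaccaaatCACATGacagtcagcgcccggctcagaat
Dpp4: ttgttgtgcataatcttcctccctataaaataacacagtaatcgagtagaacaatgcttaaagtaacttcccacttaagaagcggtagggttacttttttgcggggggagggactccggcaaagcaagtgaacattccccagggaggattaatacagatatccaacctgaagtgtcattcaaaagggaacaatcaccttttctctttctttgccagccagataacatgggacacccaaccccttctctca

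In windows running 250 bases before to 50 bases after a RefSeq start, which were given for 6 of the 7 members in 8 windows, with none for Fap, the search covered both strands. Dpp7 held CACGTG starting 73 bases before this transcript start, within the longer TCACGTGA, the palindrome known from promoters of lysosomal genes. It also held CATGTG at 42 and CACATG at 29 bases before the transcript start, both inside the gene record. Dpp8 held CACGTG at 153 bases before the transcript start of its window. No window of Dpp4, Dpp6, Dpp9 or Dpp10 held any of these hexamers. The only Dpp10 window uses a start 800256 bases inside its gene record, so the bases around the start of that record were not searched. The Dpp6 windows use starts 0, 231842 and 444578 bases inside its gene record. Of 32851 such windows of mouse genes, 7.15% held CACGTG, 14.2% held CATGTG in either orientation, and 0.974% held TCACGTGA. Binding was not measured, and a match is a description of the letters only.

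Dpp4 (probe set 10483046) had 7.17, 7.27 and 7.17 on the arrays labelled mutant, against 5.93, 6.02 and 6.13 on the arrays labelled control. Every array labelled mutant was above every array labelled control, and the gap of 1.04 between the groups was wider than the spread inside either, 0.10 among arrays labelled mutant and 0.20 among arrays labelled control. The means were 7.20 ± 0.06 on arrays labelled mutant and 6.03 ± 0.10 on arrays labelled control (SD, n = 3 each), a log2 difference of 1.17 (SE 0.07), or 2.25-fold. Among the 19938 genes this difference ranked 17 from the highest. The array is a bulk measurement of the dissected tissue, so fewer cells of a type and less RNA per cell cannot be told apart here.

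Fap (probe set 10483081), which lies 88.6 kb from Dpp4, had 6.38, 6.30 and 6.67 on the arrays labelled mutant and 6.48, 6.55 and 6.57 on the arrays labelled control. The groups overlapped, since the third array labelled mutant gave the highest value of the 6 and the other two gave the lowest. The difference was −0.09 (SE 0.10).

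**Figure D1:**
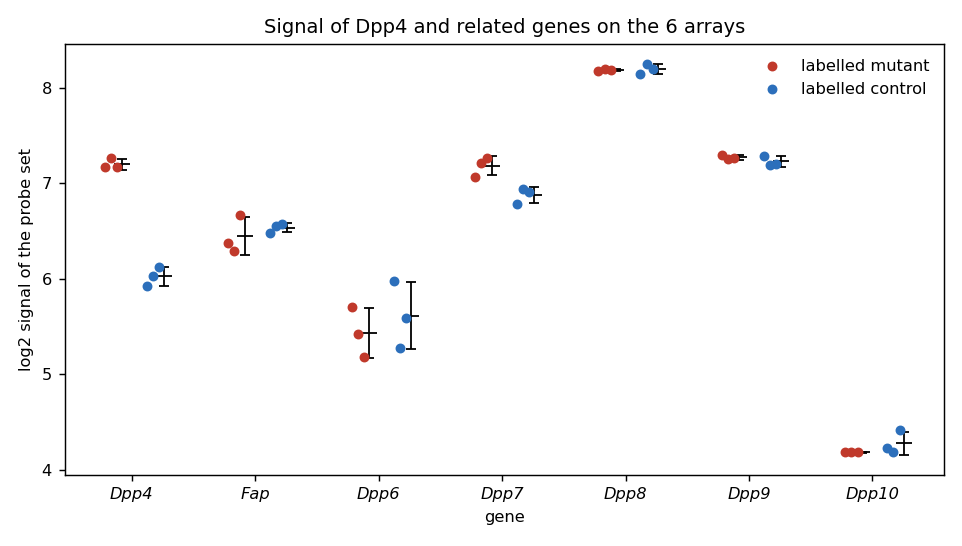
Log2 signal of the 7 members on each array, with arrays labelled mutant in red to the left of arrays labelled control in blue, replicates 1 to 3 from left to right, and a black dash and bar for the mean and SD (n = 3). Dpp4 shows the widest gap between the groups (7.17 to 7.27 on arrays labelled mutant, 5.93 to 6.13 on arrays labelled control), and Dpp7 a narrow one. Signals of different probe sets are on scales of their own and are not set against each other.

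Dpp7 (probe set 10480699) had 7.07, 7.21 and 7.27 on the arrays labelled mutant, against 6.78, 6.94 and 6.91 on the arrays labelled control. The lowest array labelled mutant was 0.13 above the highest array labelled control, a gap narrower than the spread inside either group. The difference was 0.31 (SE 0.07), or 1.24-fold, rank 247 of the 19938 genes.

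The cytosolic pair showed the least movement between arrays. Dpp8 (probe set 10586284) had 8.18, 8.20 and 8.18 on the arrays labelled mutant and 8.14, 8.25 and 8.20 on the arrays labelled control, a difference of −0.01 (SE 0.06) whose sign turned to 0.01 when each array was centred on its own median. Dpp9 (probe set 10452000) had 7.30, 7.25 and 7.26 on the arrays labelled mutant and 7.29, 7.19 and 7.20 on the arrays labelled control, a difference of 0.04 (SE 0.06). The 6 arrays spanned 0.11 for Dpp8 and 0.10 for Dpp9.

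Of the catalytically inactive members, Dpp10 (probe set 10357300) had 4.18, 4.18 and 4.19 on the arrays labelled mutant and 4.23, 4.19 and 4.42 on the arrays labelled control. It lay below the median signal of the arrays, and the groups overlapped at their edges, with a difference of −0.09 (SE 0.07). Dpp6 (probe set 10520318) varied more within the groups than any other member: it had 5.70, 5.42 and 5.18 on the arrays labelled mutant and 5.98, 5.27 and 5.59 on the arrays labelled control. Its groups overlapped over most of their ranges, and the difference was −0.18 (SE 0.19). A second probe set of Dpp6, 10520351, was dim, with means of 3.02 on arrays labelled mutant and 3.08 on arrays labelled control.

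Across the family, 3 members had a difference above 0 and 4 below, with a median of −0.01, against a median of −0.0007 over all 19938 genes. Groups that did not overlap were found for 2 members, both higher on arrays labelled mutant, where 6.23% of all genes were separated in that direction and 5.17% in the other. Since the members were selected on this same contrast, nothing is read from this count.

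Dpp4, Gcg and Fap follow each other on mouse chromosome 2 (GRCm38.p6 positions from RefSeq, since the array files name no build): Dpp4 at chr2:62330073-62412315 and Fap at chr2:62500936-62575509. Gcg, the precursor of glucagon and the incretin that DPP4 cleaves, sits between them, 62.2 kb from Dpp4 and 17.3 kb from Fap. Slc4a10, a bicarbonate transporter gene, lies 3.33 kb from Dpp4 on the other side, and Ifih1, a sensor of viral RNA, 20.1 kb beyond Fap. Beside 1.17 at Dpp4, the difference was −0.14 at Slc4a10 (adjusted p = 0.927), −0.12 at Gcg (adjusted p = 0.960), −0.05 at Ifih1 (adjusted p = 0.99) and 0.08 at Gca (adjusted p = 0.99). Tbr1, a transcription factor of cortical neurons, had −0.13 (adjusted p = 0.910) and Grb14, an adaptor of the insulin receptor, −0.16 (adjusted p = 0.872). Of the 10 neighbours, 5 on each side of the Dpp4 to Fap stretch, 0 were called by limma at an adjusted p under 0.05, against 0.426% of all genes, 0.331% higher and 0.0953% lower. Of the same 10, 0 had an unadjusted p under 0.05. Groups did not overlap for 1, in the lower direction, beside 5.17% of all genes. Their median difference was −0.05. Only 5 of the 10 were at or above the median signal. Slc4a10, Tbr1, Ifih1 and also Gcg were above the array median on 0 of 6 arrays, so a difference there may not show.

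**Figure D2:**
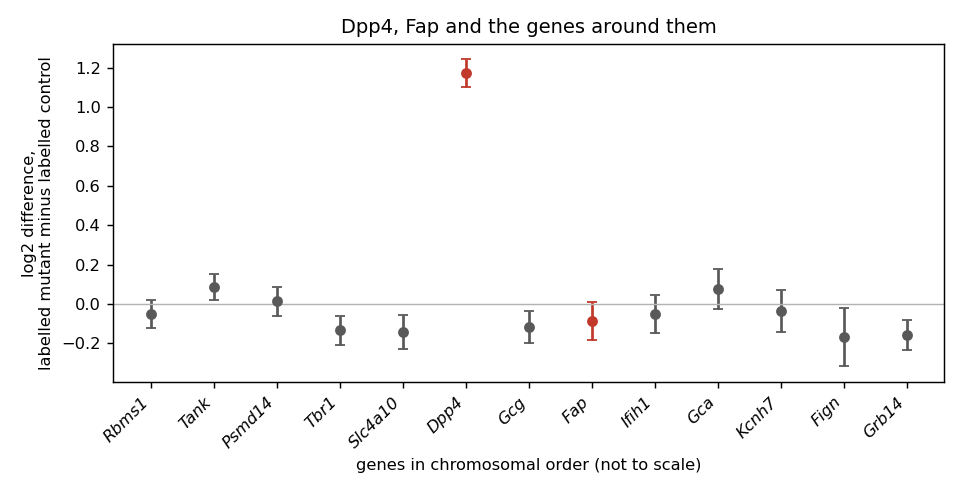
Log2 difference, arrays labelled mutant minus arrays labelled control, for Dpp4 and Fap (red) and the genes around them (grey) in the order they have on the chromosome, with bars of 1 standard error. Dpp4 stands at 1.17, and Fap at −0.09 and Gcg at −0.12 lie near 0 with the other neighbours. Gcg, Slc4a10, Tbr1, Ifih1, Kcnh7 and Fign were dim, above the array median on 0 of 6 arrays.

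A list of other cell-surface ectopeptidases, enzymes that like DPP4 trim peptides outside the cell, could be read for 24 of its 27 genes. None was called in either direction by limma, where 0.426% of all genes were, and the median difference was −0.01. Of the 24, 11 were at or above the median signal. At an unadjusted p under 0.05 there were 4 of 24, beside 1422 of the 23410 probe sets tested. The groups did not overlap for 5 in the higher direction and 1 in the lower, beside 6.23% and 5.17% of all genes. Dpep1, a dipeptidase that splits cysteinylglycine in the breakdown of glutathione, had 6.69, 6.97 and 7.27 on the arrays labelled mutant, against 6.36, 6.17 and 6.30 on the arrays labelled control, a difference of 0.70 (SE 0.14, adjusted p = 0.133). Folh1, a carboxypeptidase that releases glutamate from folates and N-acetylaspartylglutamate, had 4.90, 4.81 and 5.22 on the arrays labelled mutant, against 4.39, 4.34 and 4.44 on the arrays labelled control, a difference of 0.60 (SE 0.10, adjusted p = 0.0937). Both were separated by group but missed the threshold, and over the other settings tried their adjusted p ran from 0.053 to 0.727 for Dpep1 and from 0.057 to 0.664 for Folh1. Both also have an entry in the authors' deposited table, made from the same samples. Its means were 6.28 under KO and 6.98 under CON for Dpep1, and 4.40 under KO and 4.99 under CON for Folh1. Its threshold was another one, a p under 0.05 with a fold change above 1.5, and no adjustment is named for it. The unadjusted limma p here was 0.00091 for Dpep1 and 0.00047 for Folh1. The remaining ectopeptidases ran from −0.35 for Trhde, which degrades thyrotropin-releasing hormone, to 0.25 for Mme, which encodes neprilysin. These 2 values were picked as the ends of the range after they were seen.

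Other peptidases that cut at proline or share the names or folds of the family gave smaller differences still. All 13 had a probe set, and 0 were called by limma, where 0.426% of all genes were. At an unadjusted p under 0.05 there were 0, beside 1422 of the 23410 probe sets tested, and the median was 0.03. The groups did not overlap for 1 in the higher direction, Xpnpep2, and 1 in the lower, Dpp3 at −0.07. Of all genes 6.23% and 5.17% were separated in these directions. The smallest p-values belonged to differences of 0.19 for Xpnpep2, a membrane-bound aminopeptidase that removes a residue ahead of proline (adjusted p = 0.843), and 0.17 for Tpp1, a lysosomal tripeptidyl peptidase (adjusted p = 0.880).

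**Figure D3:**
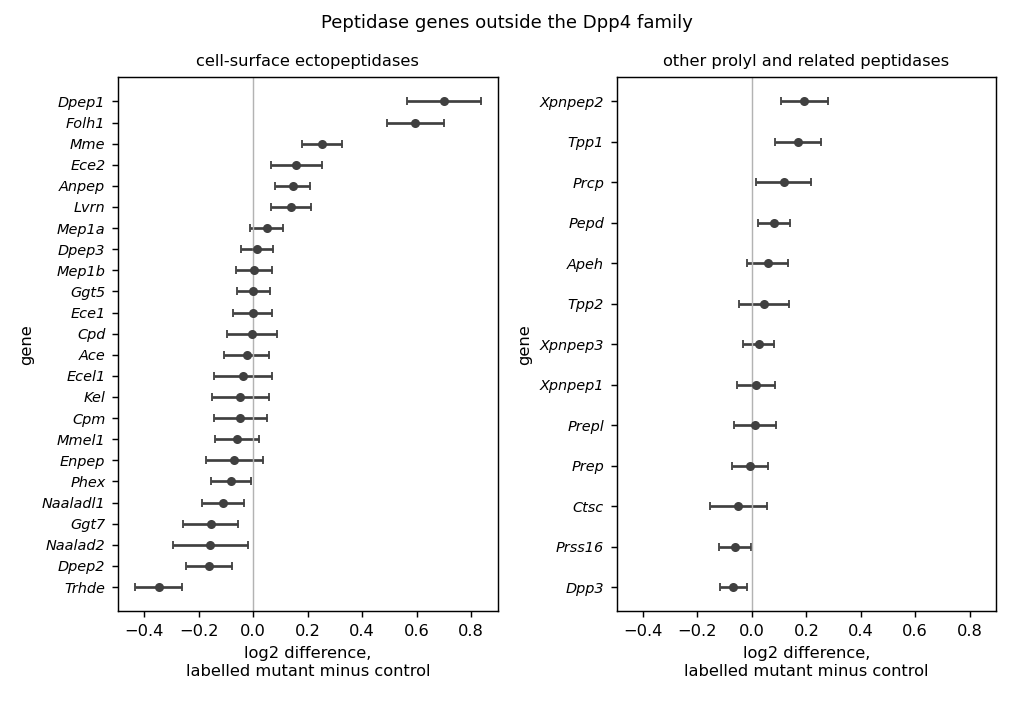
Log2 difference, arrays labelled mutant minus arrays labelled control, with bars of 1 standard error, for 24 cell-surface ectopeptidases (left) and 13 other prolyl and related peptidases (right). Dpep1 at 0.70 and Folh1 at 0.60 lie farthest to the right and Trhde at −0.35 farthest to the left, and none of the 37 genes passed the adjusted threshold.

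The genes on which these enzymes act, or with which they assemble, were read from 5 further lists. None of their genes was called in either direction by limma, where 0.426% of all genes were. Many were dim: 5 of the 21 precursors, 6 of the 19 receptors and 9 of the 14 partners were at or above the median signal. Of the genes named below, Gip, Npy2r and Plg were above the array median on 0 of 6 arrays. In dim genes a difference may not show. Groups did not overlap for 6.23% of all genes in the higher direction and 5.17% in the lower, and the counts below stand beside those shares. Of 21 precursors of peptides and chemokines that DPP4 cleaves, 0 had an unadjusted p under 0.05, 1 was separated by group as higher and 2 as lower, and the median was −0.02; Gip, another incretin, had 0.13 (adjusted p = 0.875) and Npy, neuropeptide Y, −0.12 (adjusted p = 0.925). Of 19 of 20 receptors of those peptides, 1 had an unadjusted p under 0.05 and 2 were separated as higher, with a median of −0.03. The receptors of smallest p were Npy2r, which binds the form of neuropeptide Y that DPP4 has shortened, at 0.37 (adjusted p = 0.612), and Cxcr4, the receptor of a chemokine that DPP4 inactivates, at −0.32 (adjusted p = 0.854). Of 14 of 15 binding partners and FAP substrates, 0 had an unadjusted p under 0.05 and 1 was separated as higher, with a median of −0.02 and with Col1a1, a chain of fibrillar collagen, at 0.11 (adjusted p = 0.908) and Plg, plasminogen, at −0.12 (adjusted p = 0.927).

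In the lists tied to the other members the differences were small as well. Of the Kv4 genes 4 of 7, and of the inflammasome genes 2 of 7, were at or above the median signal. Il1b and Nlrp1b were above the array median on 0 of 6 arrays, so a difference there may not show. Their counts stand beside the same shares of all genes, 6.23% separated as higher and 5.17% as lower. Of 7 Kv4 channel subunits, the partners of DPP6 and DPP10, 0 had an unadjusted p under 0.05 and 0 were separated by group, with a median of 0.05, and with the pore-forming subunits Kcnd2 at 0.09 (adjusted p = 0.957) and Kcnd1 at 0.12 (adjusted p = 0.967). Of 7 genes of the NLRP1 inflammasome, which DPP8 and DPP9 hold in check, 0 had an unadjusted p under 0.05 and 1 was separated as lower, with a median of −0.06, and with the cytokine gene Il1b at −0.11 (adjusted p = 0.942) and the sensor gene Nlrp1b at −0.08 (adjusted p = 0.968).

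Other cell types that can carry DPP4 or FAP were read through their markers. Their called counts stand beside 0.426% of all genes, 0.331% higher and 0.0953% lower. Counts of groups without overlap stand beside 6.23% of all genes in the higher direction and 5.17% in the lower. All 6 lymphocyte markers with a probe set lay below the median signal, and the log2 of their summed signal was 6.22 to 6.28 on arrays labelled mutant and 6.11 to 6.26 on arrays labelled control. The 10 mesenchyme markers were all above the median, with log2 sums of 14.26 to 14.44 on arrays labelled mutant and 14.27 to 14.31 on arrays labelled control, and 0 of them were called. Of 8 surface epithelium markers 1 was called, Dsg3, and 4 were higher without overlap on arrays labelled mutant, where 6.23% of all genes were, and the log2 sum was 11.98 to 12.33 on arrays labelled mutant and 11.61 to 11.87 on arrays labelled control. Dsg3, a desmosomal cadherin, had a difference of 0.68 (adjusted p = 0.0333), Krt12, the corneal keratin, 1.09 (adjusted p = 0.0787) and Krt6a 1.11 (adjusted p = 0.0526), while Trp63 was at 0.02 and Krt14, Krt15 and Perp overlapped between the groups. Of 12 RPE markers 2 were called, both higher on arrays labelled mutant: Rlbp1, the retinaldehyde-binding protein, at 1.0 (adjusted p = 0.0102) and the melanogenic enzyme gene Tyrp1 at 0.94 (adjusted p = 0.0196). Groups did not overlap for 5 of the 12, all higher. They include Pmel at 0.68 (adjusted p = 0.063) and Tyr, tyrosinase, at 0.67 (adjusted p = 0.340), while Otx2 was at −0.10. Rpe65 was at 0.0007, but with a mean of 2.34 in either group it lay far below the median signal, where a difference may not show. What part either list has in the Dpp4 signal was not tested.

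The 5 genes whose pattern over the 6 arrays was most like that of Dpp4 were Tmem72 (Pearson r = 0.998), H60b (r = 0.997), Atp6v1b2 (r = 0.996), Slc7a11 (r = 0.995) and Kcnq5 (r = 0.995). H60b is a ligand of the NKG2D receptor, Atp6v1b2 a subunit of the vacuolar proton pump, Slc7a11 the cystine and glutamate exchanger, and Kcnq5 a potassium channel. In all 5 the arrays labelled mutant were higher, by 0.56, 0.84, 0.18, 2.57 and 1.17 in the same order, so the likeness follows the split between the groups. An r above 0.99 was found for 13 of 19937 genes.

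Dpp6 was ordered by another measure than the groups. Its value rose with the mean of the 12 neural retina markers across the 6 arrays (Pearson r = 0.96, exact permutation p = 0.00278; Spearman rho = 1, exact permutation p = 0.00278, both two-sided and the smallest that 6 arrays can give, and 0.0194 after adjustment over the 7 members). Without the arrays farthest from the median of the markers, the second labelled control and the third labelled mutant, r was 0.97, and taken within the groups it was 0.98. An r at least as high was found for 171 of 19937 genes, 0.858%, and the markers themselves, each against the mean that includes it, gave 0.92 to 0.998. For the other members the adjusted p of r was 0.408 or above: r was −0.16 for Dpp4, −0.58 for Fap, −0.52 for Dpp7, −0.67 for Dpp8, 0.55 for Dpp9 and 0.23 for Dpp10. Some of these relations were closer in part of the data: within the groups r was −0.89 for Dpp7 and 0.74 for Dpp9, and without the same pair of arrays it was −0.98 for Dpp8 and 0.74 for Dpp9. With the marker mean as a covariate, an alternative added after the values were seen, the difference was −0.11 (SE 0.07) for Dpp6, 1.17 for Dpp4 and 0.29 for Dpp7.

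**Figure D4:**
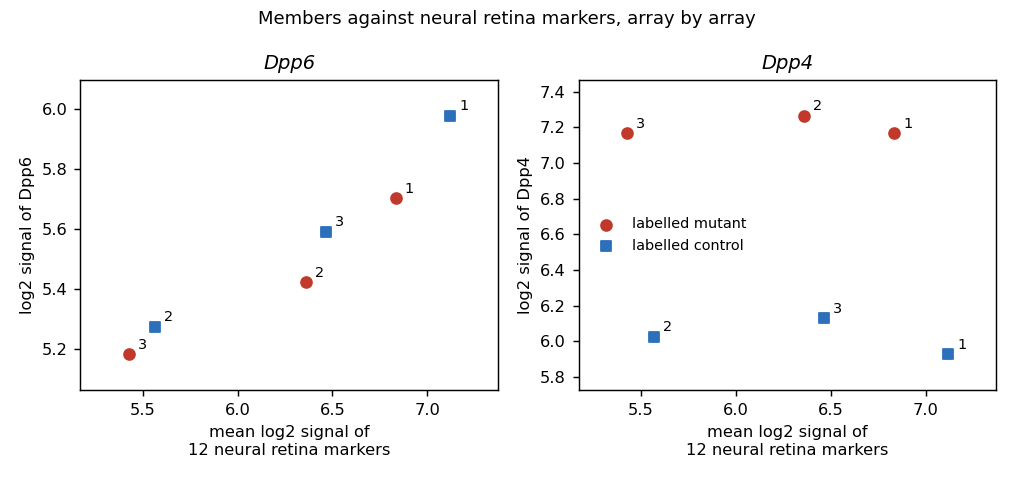
Log2 signal of Dpp6 (left) and Dpp4 (right) against the mean log2 signal of 12 neural retina markers on the same array, with arrays labelled mutant as red circles and arrays labelled control as blue squares, numbered by replicate. Dpp6 follows the marker mean over both groups (r = 0.96), and Dpp4 divides by group at any level of the markers (r = −0.16).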

How the data were processed

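The authors hybridised 300 ng of total RNA per sample to the Mouse Gene 1.0 ST array of Affymetrix and deposited log2 signals of 35556 probe sets. The submitters' processing notes name Partek, but the version, background correction and summarization were not given in the sources used here. A second deposited table holds group means on the log2 scale for 100 entries that passed the authors' threshold. Its columns of p-values, ratios and fold changes were not used.

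Probe sets were named from the platform annotation. Of these, 21789 had 1 symbol, 1621 several and 12146 none, and 21698 of those with 1 symbol were matched by gene ID to current RefSeq genes. All 6 arrays were compared with limma 3.58.1 (lmFit, eBayes) in R 4.3.3, without covariates, over 23410 named probe sets, with Benjamini-Hochberg adjustment and a threshold of 0.05. The steps were tested on simulated data. The labels give 3 samples per group from pooled tissue, which limits the precision. Arrays correlated with each other at 0.992 to 0.995.

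Members and lists were chosen with earlier results of these data known. Named genes are every member, the first neighbours by position, the 5 genes most like Dpp4, and in each list up to 4 called genes or, with none called, the 2 of smallest p.

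Same-numbered arrays did not deviate together throughout: r was 0.37, −0.06 and 0.07 for numbers 1, 2 and 3. Differently numbered arrays gave r from −0.44 to 0.37, so replicate numbers were not taken as pairs. The controls were littermates of the mutants, but the labels do not say which tubes shared litters, so no pairing by litter was used. Alternatives covered the probe sets tested, the variance model, array weights, normalization, centring, the probe set per gene, the test, a replicate block and leaving out each array.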

Additional observations from a re-analysis of the deposited data

How the results depend on the processing

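Over all named probe sets, 66 were called higher and 19 lower on arrays labelled mutant, and 1422 had an unadjusted p under 0.05. With all probe sets tested, unnamed ones included, the counts were 35 higher and 6 lower, and the methods' t-test called 0 higher and 0 lower after adjustment. Leaving out 1 array gave 23 to 54 higher and 3 to 31 lower. The count of higher calls was 38, 23 and 28 without mutant replicates 1, 2 and 3 and 34 without control replicate 3. That of lower calls was 10, 3 and 3 without mutant replicates 1, 2 and 3, and 31, 5 and 3 without control replicates 1, 2 and 3. With the neural retina marker mean as a covariate, chosen after seeing the data, 38 were lower. With the replicate block the counts were 63 higher and 14 lower, and the Dpp4 difference was 1.17. The block changed no call in a list. The count of called genes in each list stayed at 0 in every setting that was run, which for the methods' t-test follows from its 0 calls over the whole table. Leaving out 1 array moved the difference between 1.12 and 1.22 for Dpp4, between 0.26 and 0.36 for Dpp7, between −0.20 and −0.01 for Fap and between −0.35 and 0.003 for Dpp6, whose sign turned without control replicate 1. With 3 arrays per group, differences of the size seen for Dpp8 or Dpp9 could not be told from the spread between replicates.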

Other observations

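The authors' deposited table of group means also lists Ggt1, which encodes a gamma-glutamyl transferase that acts on extracellular glutathione ahead of the dipeptidase DPEP1, with a mean of 5.61 under KO and 7.57 under CON. Ggt1 had no probe set annotated with its symbol alone here, so no value per array is given for it.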
